A study of Homo sapiens with 2 samples.

Results

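Several microRNAs (miRNAs) serve as markers of cells other than epithelium, and this account follows 10 hairpins of that kind in 2 small-RNA libraries from cultured breast cancer cells. The stromal markers are hsa-mir-143, hsa-mir-145, hsa-mir-199a-1, hsa-mir-199a-2, hsa-mir-199b and hsa-mir-214. The blood-cell markers are hsa-mir-142, hsa-mir-223, hsa-mir-150 and hsa-mir-451a, and the species prefix is left out from here on. They were taken by hairpin name from the deposited count table, both arms included, as 19 of its 2121 rows. The 3p arms of mir-199a and mir-199b carried equal counts on every precursor and were merged into miR-199a/b-3p. This gave 16 mature miRNAs of 1623 annotated ones, 9 stromal and 7 blood.

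One library came from MDA-MB-468, a breast cancer line labelled ER-, PR- and HER2-, that is without receptors for oestrogen (ER) or progesterone and without HER2. The other came from BT474, labelled as ER-positive. Per the labels, each is a stem-enriched subpopulation sorted by flow cytometry on CD24 and CD44, and both lines were grown with fetal bovine serum, MDA-MB-468 in DMEM and BT474 in RPMI-1640. Each line gave 1 library, so no difference has a replicate check, and cell line, sorted fraction and medium cannot be told apart. The annotated counts summed to 11448022 in MDA-MB-468 against 5133057 in BT474, and values are given as CPM, the count scaled to a total of 1000000. The epithelial markers, the miR-200 family and miR-205, took 8.83% of counts in MDA-MB-468 against 5.91% in BT474. The members went both ways. Of 11 mature miRNAs with 10 counts or more in a library, 4 were 2-fold or more higher in MDA-MB-468 and 2 lower. The shares over all such miRNAs were 29.1% and 28.3%.

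A miRNA hairpin is cut into a 5p and a 3p arm, of which one is usually loaded into Argonaute and guides it to messenger RNAs through its seed, bases 2 to 8. miR-143 and miR-145 are made from 1 transcript that is abundant in smooth muscle and fibroblasts, and the miR-199a and miR-214 hairpins are transcribed together in mesenchymal cells. miR-142 is expressed across blood cells, miR-223 in myeloid cells, miR-150 in mature lymphocytes and miR-451a in red cell precursors, where Argonaute 2 rather than Dicer cuts it.

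The arms on which the results turn are shown from RefSeq (GRCh38.p14), each with its seed in capitals. A sequence was matched for 13 of the 17 mature names. No sequence is printed for miR-199b-5p, miR-150-5p, miR-150-3p or miR-451a.
miR-143-3p, chr5:149428978-149428998, plus strand: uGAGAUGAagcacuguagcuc
miR-145-5p, chr5:149430661-149430683, plus strand: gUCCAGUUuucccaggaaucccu
miR-199a-5p, chr1:172144592-172144614, minus strand: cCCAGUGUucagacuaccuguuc
miR-199a-3p and miR-199b-3p, chr1:172144554-172144575, minus strand: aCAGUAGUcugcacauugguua
miR-214-3p, chr1:172138816-172138837, minus strand: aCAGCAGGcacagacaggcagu
miR-142-5p, chr17:58331283-58331303, minus strand: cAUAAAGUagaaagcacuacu
miR-142-3p, chr17:58331245-58331267, minus strand: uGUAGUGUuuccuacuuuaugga
miR-223-3p, chrX:66018937-66018958, plus strand: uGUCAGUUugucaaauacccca
The 13 names with a sequence carried 12 distinct seeds, and the shared one belonged to miR-199a-3p and miR-199b-3p, which are identical over all 22 bases. The chromosome 1 position shown for this pair is that of miR-199a-3p in MIR199A2. miR-199b-3p lies at chr9:128244745-128244766, minus strand. The MIR199A1 copies on chromosome 19 are at 10817429-10817450 for miR-199a-3p and 10817469-10817491 for miR-199a-5p. Seeds of the 4 names without a printed sequence were not compared. Among other miRNAs in the RefSeq table with a member's seed, miR-4770, which shares that of miR-143-3p, was the one listed in the counts, with 2 in BT474.

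The hairpins of 3 members are shown because the results compare their arms, with the mature 5p and 3p arms in capitals.
MIR143, chr5:149428918-149429023, plus strand: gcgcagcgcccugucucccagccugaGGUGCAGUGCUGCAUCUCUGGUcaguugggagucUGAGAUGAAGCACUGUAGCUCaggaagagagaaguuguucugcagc
MIR199A2, chr1:172144535-172144644, minus strand: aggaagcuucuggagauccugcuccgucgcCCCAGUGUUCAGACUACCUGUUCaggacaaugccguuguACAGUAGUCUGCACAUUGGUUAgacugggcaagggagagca
MIR142, chr17:58331232-58331318, minus strand: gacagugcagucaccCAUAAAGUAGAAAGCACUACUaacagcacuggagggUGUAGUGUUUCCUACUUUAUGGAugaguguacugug
In GENCODE 29 (GRCh38), MIR143 overlaps an exon and MIR145 lies in an intron of CARMN, a long non-coding RNA on the same strand, with 1622 bases between the hairpins. MIR199A2 and MIR214 overlap exons of DNM3OS, transcribed opposite to the dynamin gene DNM3, and lie 5627 bases apart. MIR199A1 and MIR199B lie opposite to introns of the dynamin genes DNM2 (chromosome 19) and DNM1 (chromosome 9).

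The marker miRNAs made up a small share of counts in both libraries, with miR-143-3p standing well above the others. All 16 together made up 0.0424% of counts in MDA-MB-468 against 0.0245% in BT474. In each library 13 of the 16 were listed. Listed miRNAs of the MDA-MB-468 library had a median level of 2.05 CPM, while the BT474 median was 3.51 CPM. Markers reaching 10 counts in either library lay above these medians, except miR-451a at 2.01 CPM (MDA-MB-468) and miR-199a-5p at 3.12 CPM (BT474). The remaining listed markers lay below them. The table lists no count below 2, so a name without a value was not listed, which is not a measured 0, and 3 counts correspond to 0.262 CPM in MDA-MB-468 against 0.584 CPM in BT474. In these bulk libraries, fewer cells of a type and less of a miRNA per cell cannot be told apart. Errors are exact Poisson intervals of 95%, which cover counting error only, since reads amplified by PCR without molecular identifiers are not independent molecules.

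**Figure D1:**
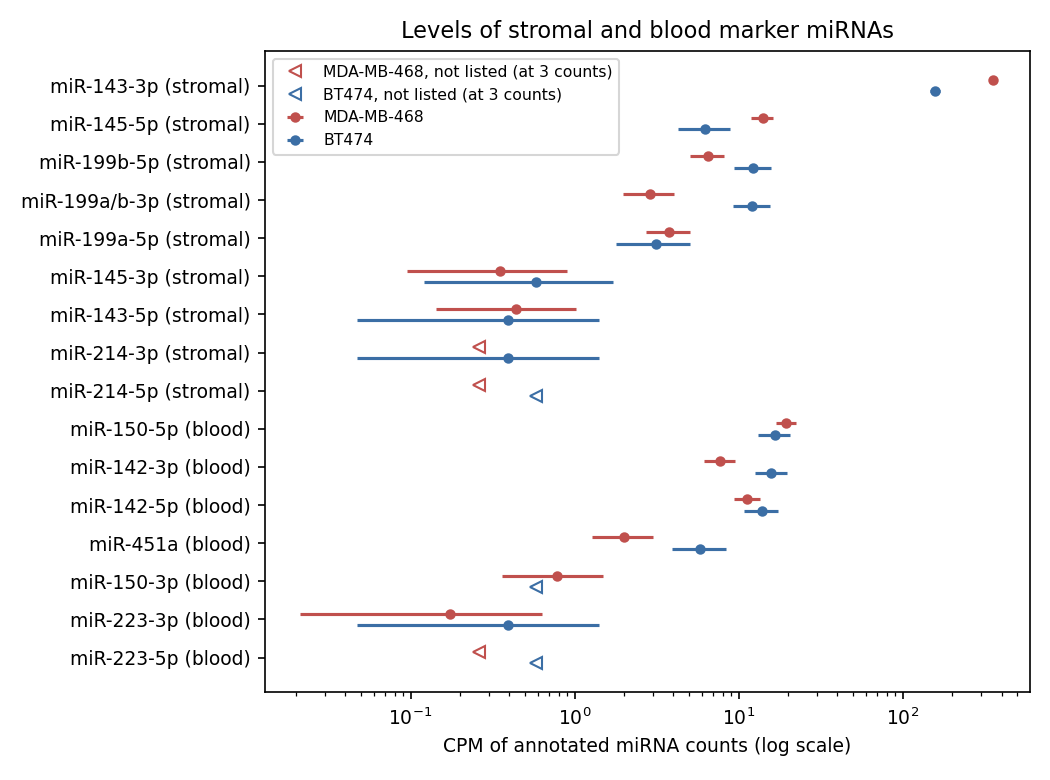
CPM (log scale) of the 16 marker miRNAs in the MDA-MB-468 (red) and BT474 (blue) libraries, with 95% Poisson intervals for counting error; open triangles mark miRNAs that were not listed, drawn at 3 counts. miR-143-3p lies at 354 and 158 CPM, and the other markers lie under 20 CPM in both libraries.

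miR-143-3p, the main arm of its hairpin, had 4056 counts in MDA-MB-468, or 354 CPM (343 to 365), and 811 counts in BT474, or 158 CPM (147 to 169). It ranked 101 among the 952 miRNAs listed in MDA-MB-468 and 132 among the 841 listed in BT474. It alone made up 92.7% of stromal marker counts in MDA-MB-468 against 81.8% in BT474. The level was 2.24-fold higher in MDA-MB-468 (2.08 to 2.42; log2 ratio 1.17, 1.06 to 1.28). Intervals of ratios are exact conditional binomial ones, and a difference was called where the ratio reached 2-fold and its interval excluded 1. The call was lost with 2 of 7 alternative settings, at log2 0.96 with the total taken without the 10 most abundant miRNAs and at 0.89 with upper-quartile scaling. The annotated miRNAs nearest to miR-143-3p in log2 CPM over both libraries were miR-3615 (372 and 153 CPM), miR-615-3p (372 and 139) and miR-320c (379 and 140).

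miR-145-5p, which represses the pluripotency factors OCT4 and KLF4, had 160 counts in MDA-MB-468, or 14.0 CPM (11.9 to 16.3), and 32 in BT474, or 6.23 CPM (4.26 to 8.80). Its difference matched that of its partner on the same transcript, at 2.24-fold higher in MDA-MB-468 (1.53 to 3.39; log2 ratio 1.16, 0.61 to 1.76). Its call was lost under the same 2 settings, at the same values of 0.96 and 0.89. The ratio of miR-143-3p to miR-145-5p counts, which does not depend on scaling, was 25.4 in MDA-MB-468 (21.6 to 29.9) and 25.3 in BT474 (17.8 to 37.3). The pair thus stood in nearly the same proportion in both libraries, which restates the match of their log2 ratios and is no second result. The BT474 interval is wide, because it rests on 32 counts of miR-145-5p. For comparison, miR-934 had 10860 counts in MDA-MB-468 and 8, or 0.0737% of that number, in BT474, the lowest such percentage among miRNAs with 1000 counts or more in the former and a count in the latter.

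The passenger arms of this pair were near the lower limit of the table. miR-143-5p had 5 counts in MDA-MB-468 against 2 in BT474, and miR-145-3p had 4 and 3. The 5p arm held 0.123% of mir-143 reads in MDA-MB-468 (0.0400 to 0.287, Clopper-Pearson) and 0.246% in BT474 (0.0298 to 0.886). In mir-145 it held 97.6% (93.9 to 99.3) and 91.4% (76.9 to 98.2). Each hairpin used the same main arm in both libraries, and the intervals overlapped.

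The miR-199 hairpins had few counts, and of their 3 products the 3p arm was called lower in MDA-MB-468 and the 5p arms were not called. miR-199a/b-3p, whose reads can come from any of the 3 hairpins, had 33 counts in MDA-MB-468, or 2.88 CPM (1.98 to 4.05), and 62 in BT474, or 12.1 CPM (9.26 to 15.5). It was 4.19-fold lower in MDA-MB-468 (2.70 to 6.60), with a log2 ratio of -2.07 (-2.72 to -1.44). It stayed past 2-fold under all 7 alternative settings, with log2 ratios between -2.34 and -1.91, 1 of which rests on normalized values of 2 and 8. The setting that changes the value of a blank could not move it, because it had counts in both libraries. miR-199b-5p had 74 counts in MDA-MB-468, or 6.46 CPM (5.08 to 8.11), and 63 in BT474, or 12.3 CPM (9.43 to 15.7). Its log2 ratio of -0.93 (-1.43 to -0.42) did not reach 2-fold, but did with upper-quartile scaling (-1.20) and with the total taken without the 10 most abundant miRNAs (-1.13). miR-199a-5p, shared by mir-199a-1 and mir-199a-2, had 43 counts in MDA-MB-468, or 3.76 CPM (2.72 to 5.06), and 16 in BT474, or 3.12 CPM (1.78 to 5.06). Its log2 ratio of 0.27 (-0.59 to 1.20) was not called, and it turned to -0.58 with the authors' normalized values.

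The arms of the miR-199 hairpins were then set against each other. With the 5p reads of mir-199a and mir-199b added, because their 3p reads cannot be separated, 5p held 117 of the reads in MDA-MB-468 against 33 for 3p, and 79 in BT474 against 62. The 5p share was 78.0% in MDA-MB-468 (70.5 to 84.3) and 56.0% in BT474 (47.4 to 64.4), a difference of 22.0 points with intervals apart. Pooling these hairpins was decided after their values were seen. Across 221 hairpins with at least 10 reads of both arms together in each library, 12, or 5.43%, differed by 20 points or more with intervals apart, and the median difference was 0.690 points. Among 5p reads, miR-199b-5p was 1.72 times miR-199a-5p in MDA-MB-468 (1.17 to 2.57) and 3.94 times in BT474 (2.25 to 7.30). The intervals overlapped in part, which does not show that the ratios are equal. Whether the mix of mir-199a and mir-199b contributed to the difference in the pooled 5p share was not tested.

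**Figure D2:**
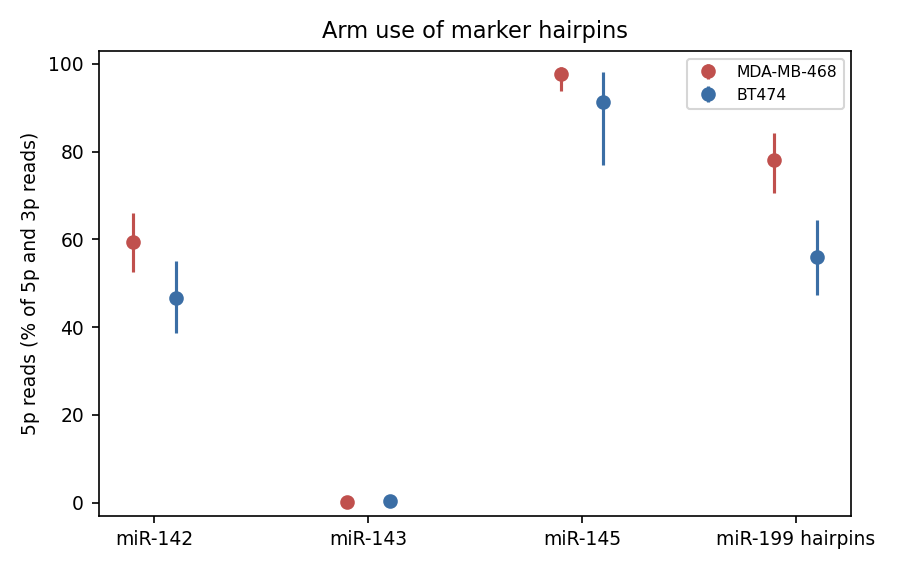
Share of 5p reads among 5p and 3p reads (percent) of marker hairpins in MDA-MB-468 (red) and BT474 (blue), with 95% Clopper-Pearson intervals; the miR-199 hairpins are pooled. The intervals are apart for the miR-199 hairpins (78.0% and 56.0%) and overlap for mir-142, mir-143 and mir-145.

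mir-214, the transcript partner of mir-199a-2, was barely detected. miR-214-3p had 2 counts in BT474, or 0.390 CPM (0.0472 to 1.41), and was not listed in MDA-MB-468. miR-214-5p was listed in neither. In BT474 miR-199a-5p had 16 counts, so that its ratio to miR-214-3p had an interval from 1.88 to 71.7. Reads of miR-199a-5p can also come from mir-199a-1 on chromosome 19.

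The blood-cell markers were led by miR-150 and miR-142. miR-150-5p, which targets the transcription factor MYB in lymphocytes, had 223 counts in MDA-MB-468, or 19.5 CPM (17.0 to 22.2), and 85 in BT474, or 16.6 CPM (13.2 to 20.5). The intervals overlapped, and the log2 ratio of 0.23 (-0.13 to 0.61) was not called. miR-150-3p had 9 counts in MDA-MB-468 and was not listed in BT474. The miRNAs nearest to miR-150-5p in level were miR-590-3p (20.3 and 18.3 CPM), miR-548k (22.4 and 17.3) and miR-139-5p (17.3 and 14.4).

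Both arms of mir-142 were present at similar levels, as is known of this hairpin in blood cells. miR-142-5p had 129 counts in MDA-MB-468, or 11.3 CPM (9.41 to 13.4), and 71 in BT474, or 13.8 CPM (10.8 to 17.4), and its log2 ratio of -0.30 (-0.72 to 0.14) was not called. miR-142-3p had 88 counts, or 7.69 CPM (6.17 to 9.47), and 81, or 15.8 CPM (12.5 to 19.6). It was 2.05-fold lower in MDA-MB-468 (1.50 to 2.81; log2 ratio -1.04, -1.49 to -0.58), and the call was lost with median-of-ratios scaling (-0.88) and with counts summed over precursors (-0.97). The 5p share was 59.4% in MDA-MB-468 (52.6 to 66.0) and 46.7% in BT474 (38.6 to 55.0). These intervals overlapped in part, which does not show that the shares are equal. The difference of 12.7 points was smaller than that of the miR-199 hairpins and larger than the median of 0.690 points over 221 hairpins.

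miR-451a, the red cell marker, had 23 counts in MDA-MB-468, or 2.01 CPM (1.27 to 3.01), and 30 in BT474, or 5.84 CPM (3.94 to 8.34). It was 2.91-fold lower in MDA-MB-468 (1.63 to 5.24), with a log2 ratio of -1.54 (-2.39 to -0.71). It stayed past 2-fold under all 7 alternative settings (-1.82 to -1.21), 1 of which rests on normalized values of 1 and 3. The value of a blank could not move it either, since both libraries held counts. Its neighbour mir-144, on the same transcript, was close to the limit of the table. miR-144-5p had 7 counts in MDA-MB-468 and was not listed in BT474, and miR-144-3p had 2 counts in BT474 and was not listed in MDA-MB-468. miR-486-5p, another abundant miRNA of red cells, had 65 counts in MDA-MB-468, or 5.68 CPM, and 59 in BT474, or 11.5 CPM. It was thus also lower in MDA-MB-468, with a log2 ratio of -1.02 (-1.55 to -0.48), which is at the edge of the 2-fold rule.

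miR-223-3p, the marker of granulocytes and monocytes, had 2 counts in each library, or 0.175 CPM (0.0212 to 0.631) in MDA-MB-468 against 0.390 CPM (0.0472 to 1.41) in BT474. miR-223-5p was listed in neither. The defining myeloid marker was therefore at the smallest listed count in both libraries, while the broader blood marker mir-142 was present on both arms. No fold is given at such counts.

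**Figure D3:**
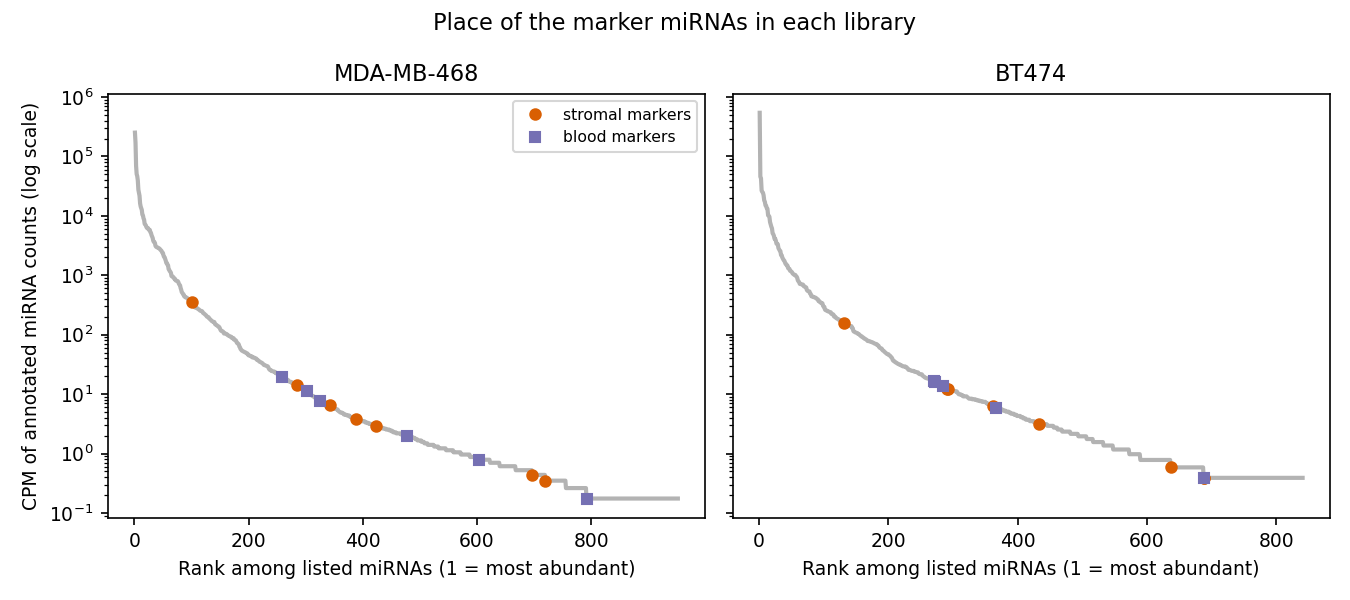
CPM (log scale) against rank for all annotated miRNAs listed in MDA-MB-468 (952, left) and in BT474 (841, right), shown as a grey line, with stromal markers as circles and blood markers as squares. miR-143-3p ranks 101 and 132, and the next marker is miR-150-5p, at 258 and 271.

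Of the 16 marker miRNAs, 9 had at least 10 counts in a library and were compared. The 7 others were miR-143-5p, miR-145-3p, both arms of mir-214, both arms of mir-223 and miR-150-3p. Of the 9, 2 were called higher in MDA-MB-468, 3 lower and 4 neither. Over all 690 annotated miRNAs that met the same minimum, 57.4% were called, 29.1% higher and 28.3% lower, so that 5 calls among 9 markers is close to the share over all miRNAs. Of the 5 stromal markers compared, 2 were higher, 1 lower and 2 neither, with a median log2 ratio of 0.27. Of the 4 blood markers compared, 2 were lower, none higher and 2 neither, with a median of -0.67. The median over all 690 was 0.30. The stromal median was -0.01 with upper-quartile scaling, which moves every log2 ratio by -0.27 and left the median over all miRNAs at 0.03. With the authors' normalized values these medians were -0.58 and 0.00. None of the 9 markers was called higher, and 4 were called lower, with upper-quartile scaling and with the total taken without the 10 most abundant miRNAs. Under these settings 24.1% and 24.8% of all miRNAs compared were called higher, and 33.2% and 32.2% lower.

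**Figure D4:**
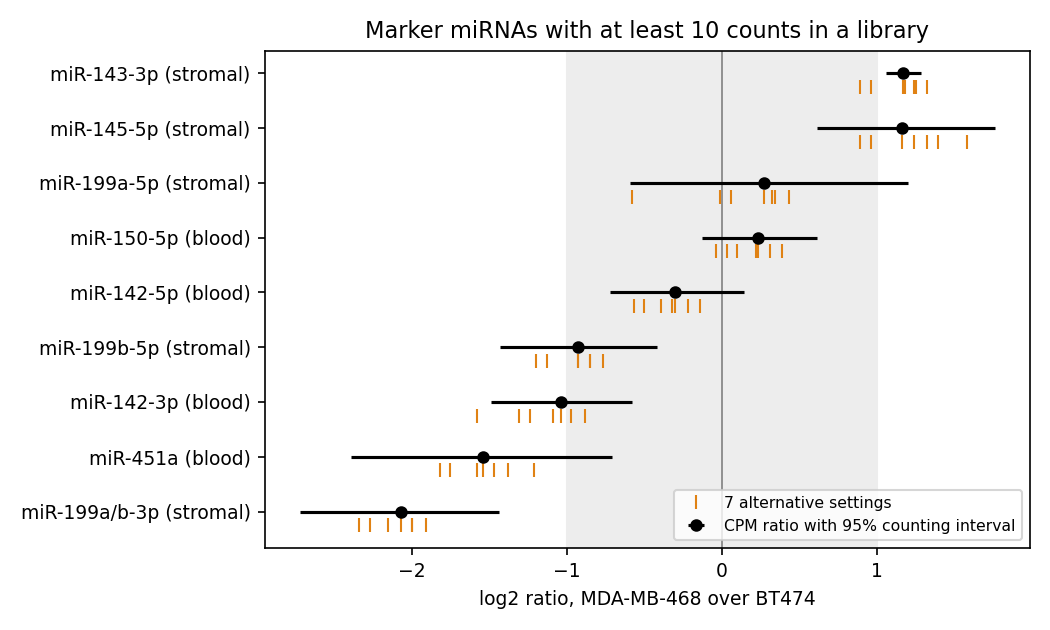
Log2 ratio of MDA-MB-468 over BT474 for the 9 marker miRNAs compared, as points with 95% counting intervals, and under 7 alternative settings as ticks; the grey band marks less than 2-fold. miR-199a/b-3p and miR-451a lie below the band under every setting drawn, and miR-143-3p and miR-145-5p fall inside it under 2.

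Summed over each list, the stromal markers stood at 382 CPM in MDA-MB-468 (371 to 394) against 193 CPM in BT474 (181 to 205), a log2 ratio of 0.99 (0.89 to 1.09). Without miR-143-3p the sums were 27.9 CPM (24.9 to 31.1) and 35.1 CPM (30.1 to 40.6), with a log2 ratio of -0.33 (-0.60 to -0.06). The higher stromal sum in MDA-MB-468 thus rested on that 1 miRNA. The blood markers summed to 41.4 CPM (37.8 to 45.3) and 52.4 CPM (46.3 to 59.1), with a log2 ratio of -0.34 (-0.56 to -0.12).

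Further markers of non-epithelial cells were placed beside these. Of 8 more mature miRNAs of blood cells, from mir-144, mir-146a, mir-155 and mir-486, 3 were compared, and 2 were called lower in MDA-MB-468, beside 28.3% of all miRNAs compared. The most abundant was miR-146a-5p, a miRNA induced by NF-kappaB, with 115 CPM in MDA-MB-468 against 68.0 in BT474 (log2 ratio 0.76, 0.59 to 0.93), which was not called. Of 8 miRNAs of muscle and endothelium, 5 were compared and 4 were called lower in MDA-MB-468, beside the same 28.3%, and 2 of these 4 are the arms of mir-126. miR-126-3p, the marker of endothelium, led them with 209 CPM in MDA-MB-468 against 660 in BT474 (log2 ratio -1.66, -1.74 to -1.59), above the level of miR-143-3p in BT474 and below it in MDA-MB-468. The muscle miRNA miR-1-3p had 15 counts in MDA-MB-468 against 25 in BT474. miR-139-3p, also called lower, had 11 and 16. The more abundant arm of its hairpin, miR-139-5p, had 198 and 74 and was not called (log2 ratio 0.26, -0.13 to 0.67). Whether other cell types contributed to the marker counts was not tested.

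In the authors' normalized values, the median count behind 1 unit was larger among scarce miRNAs than among abundant ones. Above 1000 counts the median was 13.2 counts per normalized unit in MDA-MB-468 against 6.17 in BT474, and from 10 to under 300 counts it was 15.5 and 7.25, with single miRNAs on both sides of the medians of the abundant ones. Among the markers, the smallest values were 13.3 in MDA-MB-468, for miR-143-3p and miR-145-5p, and 5.33 in BT474, for miR-199a-5p. For miR-142-3p 1 unit stood for 22.0 counts in MDA-MB-468 against 6.75 in BT474, and for miR-451a for 23.0 and 10.0. The normalized values of miR-142-3p, 4 and 12, are accordingly farther apart than its CPM, and those of miR-451a are 1 and 3.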

How the data were processed

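Small-RNA libraries of 1 sorted sample per cell line were compared. The authors deposited raw counts and normalized scores rounded to whole numbers; per the file headers, a count sums the tags of every isoform that one precursor's mature miRNA has. How the scores were scaled, and which genome build, miRNA annotation and counter were used, is not given in the sources used here. Novoalign 2.07.11 appears in the submitters' processing notes. The column headed MAD-MB-468 was taken to be the MDA-MB-468 library, whose title it resembles. The 384 rows of predicted hairpins were left out. The largest count of a name over its precursors was kept, counts were scaled to CPM, and a name not listed was set at 3 counts, in the ratio and its interval. Names reaching 10 counts in either library were compared, with exact intervals of 95% (scipy 1.17.1, numpy 2.4.6, pandas 2.3.3). The functions were tested on simulated data. At 1 count, a CPM value is 0.087 in MDA-MB-468 and 0.19 in BT474. The markers mir-122, mir-124 and mir-133a were not among the annotated hairpins of the deposited counts, so they could not be compared. All mature arms of the 10 hairpins are named, with the most abundant of each further list. So are the 3 miRNAs nearest in level to the most abundant marker of each list. miR-934, miR-4770, miR-144, miR-486-5p, miR-1-3p and miR-139-3p were named after their values were seen. The markers and lists were chosen with earlier results of these data known. Alternatives changed the scaling, depth, unit, value of a blank, collapse over precursors and count minimum.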

Additional observations from a re-analysis of the deposited data

How the results depend on the processing

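With 1 library per line there is no spread between cultures, and depth limits every marker compared but miR-143-3p, since each of the others had under 100 counts in BT474. No paired analysis was possible because each line has 1 library. Scaling moved all log2 ratios by -0.21 (total without the 10 most abundant miRNAs), -0.27 (upper quartile) and 0.16 (median of ratios). The first 2 left 0 of the markers called higher, in place of 2, and 4 called lower, in place of 3. Of all miRNAs compared, 24.8% and 24.1% were then called higher, and 32.2% and 33.2% lower. Without a count minimum the stromal median was -0.20, the median over all miRNAs -0.57, and 36.7% were called, 17.8% higher; the stromal median was -0.01 with the upper quartile and -0.58 with the authors' normalized values. Stromal sums in MDA-MB-468 and BT474 were 1325 and 773 CPM without the 10 most abundant, 347 and 212 with the upper quartile, and 327 and 153 in normalized units; in MDA-MB-468 they were 404 with median of ratios and 363 summed over precursors. Blood sums were 144 and 210 without the 10 most abundant and 28.0 and 39.0 in normalized units, 37.6 in MDA-MB-468 with the upper quartile and 46.2 in BT474 summed over precursors. With counts summed over precursors, which repeats shared reads, the 5p share of the miR-199 hairpins was 61.8% and 33.8%. In normalized units the 5p share was 66.7% for mir-142 in MDA-MB-468; with the minor arms blank, it was 0% for mir-143 and 100% for mir-145 in both libraries and 100% for mir-150 in MDA-MB-468. miR-199a/b-3p and miR-451a stayed past 2-fold under the 7 alternatives run on single miRNAs. Of these, the value of a blank could not move a marker with counts in both libraries, and the scalings moved every ratio alike. The normalized values among these are rounded units and not counts, so counting intervals do not apply to them. With a minimum of 50 counts miR-451a was not compared, and 2 markers were called lower, beside 24.8% of all miRNAs compared.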
